A study of Mus musculus with 19 samples.

Results

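The effect of losing Mcm8 was measured in the hearts of mice given LCWE, a cell wall extract of Lactobacillus casei that inflames the coronary arteries and serves as a mouse model of Kawasaki disease. Mcm8 knockout hearts after LCWE (Mcm8Ko_LCWE, genotype given as Mcm8-/-) gave 5 libraries, and wild-type hearts after LCWE (Wt_LCWE) gave 6. These 11 of the 19 heart libraries of the series were chosen by genotype and treatment as labelled, and every gene that passed a filter on low counts was compared. The other 8 libraries came from hearts given PBS, 3 knockout and 5 wild type, and are used here beside the LCWE values. All 11 libraries come from hearts given LCWE, so no heart given PBS is on either side of the comparison. All 19 libraries entered the fit, so the PBS hearts do bear on its standard errors and p-values. The treatment label does not say how far each heart was inflamed. The labels give neither the kind of knockout allele nor the age, the sex or the time after LCWE.

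The labels also carry a sample number whose meaning is not given. Numbers between 100 and 200 belong to 3 knockout libraries (replicates 1 to 3) and 3 wild-type libraries (replicates 1 to 3). Numbers under 100 belong to 2 knockout libraries (replicates 4 and 5, numbers 54 and 99) and 2 wild-type libraries (replicates 5 and 6, numbers 47 and 56). Wild-type replicate 4 has a number over 200 and lies in neither range. The direction of each difference was therefore measured in each range alone as well as over all 11 libraries. Whether each library is a mouse of its own is not stated; if not, the p-values reflect technical spread among libraries.

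MCM8 is a DNA helicase of the minichromosome maintenance family. It pairs with MCM9 and acts in homologous recombination, the repair of DNA breaks from an intact copy, and the title of the series links it to mitophagy, the removal of damaged mitochondria. DNA that reaches the cytosol from a nucleus or a mitochondrion is read by sensors such as cGAS, and RNA by RIG-I and MDA5. Both routes can induce type I interferons. Interferons bind the receptor of IFNAR1 and IFNAR2, whose kinases TYK2 and JAK1 activate STAT2. STAT2 and IRF9 act in the complex ISGF3, which binds the interferon-stimulated response element and switches on a large set of antiviral genes.

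Total counts per library ran from 12648090 to 15274762 in Mcm8Ko_LCWE and from 12284901 to 16145911 in Wt_LCWE, and 14301 of 25239 gene symbols were tested. Levels are in CPM, the count relative to the library total after scaling with the TMM factors of edgeR. Differences are log2 fold changes of knockout over wild type, with the standard error of the fit. The heart label was checked with 22 sarcomere genes, whose summed level was 125700 to 155100 CPM in Mcm8Ko_LCWE and 143700 to 160700 CPM in Wt_LCWE. Libraries stood apart in several ways that cross the groups. Wild-type replicates 1 and 3 lay apart from the other 9 on the first axis of a multidimensional scaling plot, which held 29.9% of the variance. In the same 2 libraries the liver transcript Alb was at 3.26 and 2.81 CPM, against 72.7 to 350 CPM in the others. Rn45s, the 45S ribosomal RNA precursor, reached 2374, 1841 and 1257 CPM in wild-type replicates 1 to 3, against 552 to 740 CPM in the other 8. Xist, made from the inactive X chromosome, was at 207 CPM in knockout replicate 4 and at 1.95 CPM or less in the other 4 knockout libraries. It was at 1.01 CPM in wild-type replicate 1 and at 171 to 226 CPM in the other 5 wild-type libraries. The Y-linked gene Ddx3y was at 50, 45 and 39.8 CPM in knockout replicates 1, 3 and 5 and at 39.9 CPM in wild-type replicate 1. Knockout replicate 2 had 0.65 CPM of Xist and 0.45 CPM of Ddx3y. Genotype under LCWE is therefore partly tied to sex-linked transcripts, and their part in the results was not tested except where a fit with the Y-linked level is given.

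Mcm8 was the check on the genotype. The gene lies at chr2:132816141-132844197 on the plus strand of GRCm38. Its counts were 2, 2, 10, 5 and 9 in knockout replicates 1 to 5, which is 0.155, 0.130, 0.749, 0.339 and 0.586 CPM. Wild-type hearts had 2.60 CPM at the lowest, a median of 4.23 CPM and 5.19 CPM at the highest. Every knockout library lay far below the lowest wild-type library, so the Mcm8 level matched the labelled genotype in all 11. Mcm8 fell by 3.36 ± 0.34 on the log2 scale (SE of the fit, edgeR adjusted p = 5.12e-05). An exact permutation test of log2(CPM + 1), two-sided over 462 splits, gave p = 0.00216, the smallest that 5 against 6 allows. The difference was -3.25 within sample numbers 100 to 200 and -3.44 under 100. A few counts per knockout library remained, and the table does not say from which part of the gene they came. Mcm9, the partner helicase, had 6.88, 4.41, 5.62, 7.18 and 7.03 CPM in the knockout, against 4.58 to 6.22 CPM in wild type. Its groups overlapped, at 0.14 ± 0.14 (adjusted p = 0.94).

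Mcm8 was also the only gene called over the 14301 tested. That is 0.00699% of all genes, and no gene was called higher. At an unadjusted p under 0.05 there were 794 genes (5.55%), of which 348 were higher (2.43% of all genes tested) and 446 lower (3.12%). The median log2 fold change of all genes was 0.00, with 50.7% above 0 and 49.3% below. DESeq2 called 8 genes on the same counts. They were Mcm8, Uros and the microRNA symbol Mir3098, which were lower, and Oas3, Stat2, Irf9, Herc6 and Mx1, which were higher. Those last 5 genes are known as targets or carriers of interferon signalling. The 5 genes with the smallest p among higher genes of at least 5 CPM in the edgeR fit were Herc6, Stat2, Irf9, Gbp7 and Ifih1, again all of the interferon response. None of these 5 passed the threshold of 0.05 (edgeR adjusted p = 0.50 to 0.63), so they are given as values. Among lower genes the smallest p-values at that level belonged to Uros, Fahd1, Cmtm8, Cox7a1 and Rdh14 (edgeR adjusted p = 0.63 to 0.70).

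Interferon-response genes are described from their ligands to their targets, beginning with a motif searched for in their promoters. The core of the response element bound by ISGF3 was searched as GAAANNGAAA on both strands (TTTCNNTTTC on the other) in the 250 bases before each gene's start, in RefSeq promoters of GRCm38.p6. It was present in 978 of 32851 promoters, or 2.98%. Of the 39 tested genes on the list of interferon-stimulated effectors 28 had a promoter in the table, and 17 of these 28 (60.7%) held the core. List shares count genes, and a gene with several promoters counts if any holds the core, while the share of 2.98% counts single promoters. The share was 4 of 13 genes (30.8%) for cytosolic DNA and RNA sensing, 2 of 11 (18.2%) for MHC class I and 6 of 42 (14.3%) for cytosolic ribosomal proteins. It was 2 of 15 (13.3%) for macrophage and monocyte genes, 2 of 30 (6.67%) for respiratory complex I and 0 of 29 for complexes II to V. A match is a run of letters, not a shown binding site. The sequences of 5 effectors follow, chosen among those that hold the core and whose levels in the knockout are given after them. Each match to the core is in capitals. The strand of the gene is read 5′ to 3′, and the last base is the one before the start.
Isg15 (chr4:156200819-156201068, minus strand): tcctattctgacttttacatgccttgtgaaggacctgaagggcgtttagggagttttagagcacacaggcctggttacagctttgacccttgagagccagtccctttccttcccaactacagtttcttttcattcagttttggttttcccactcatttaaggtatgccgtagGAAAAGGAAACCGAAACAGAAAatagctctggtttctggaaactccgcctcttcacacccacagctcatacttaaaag
Ifit1 (chr19:34640639-34640888, plus strand): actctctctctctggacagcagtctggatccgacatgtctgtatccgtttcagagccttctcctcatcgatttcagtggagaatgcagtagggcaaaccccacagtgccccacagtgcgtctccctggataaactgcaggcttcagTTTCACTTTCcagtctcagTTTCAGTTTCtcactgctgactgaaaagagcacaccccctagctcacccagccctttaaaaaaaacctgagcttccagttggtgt
Oas3 (chr5:120777660-120777909, minus strand): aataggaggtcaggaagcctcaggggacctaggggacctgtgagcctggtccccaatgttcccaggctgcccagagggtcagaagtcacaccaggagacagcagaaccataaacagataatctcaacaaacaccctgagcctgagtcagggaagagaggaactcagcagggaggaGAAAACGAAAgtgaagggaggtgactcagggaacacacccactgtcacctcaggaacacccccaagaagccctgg
Gbp7 (chr3:142530086-142530335, plus strand): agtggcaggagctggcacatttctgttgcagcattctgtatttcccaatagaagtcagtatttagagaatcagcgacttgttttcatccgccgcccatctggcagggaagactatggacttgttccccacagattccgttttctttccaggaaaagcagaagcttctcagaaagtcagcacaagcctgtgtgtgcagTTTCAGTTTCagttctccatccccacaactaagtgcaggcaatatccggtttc
Stat2 (chr10:128270248-128270497, plus strand): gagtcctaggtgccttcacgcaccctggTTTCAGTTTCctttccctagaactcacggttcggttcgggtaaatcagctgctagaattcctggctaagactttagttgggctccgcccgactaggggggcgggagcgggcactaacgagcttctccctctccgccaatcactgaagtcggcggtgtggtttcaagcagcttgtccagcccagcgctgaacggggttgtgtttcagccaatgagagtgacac
In Isg15 3 matches overlap into 1 run, and Ifit1 has 2 separate matches on the opposite strand. Oas3 has 1 match, which begins at position -75 from the start of the gene. Gbp7 has 1 at position -53 and Stat2 has 1 at position -222. Other genes whose levels are given below had no match to these letters in the window. They were Irf9, Irf7, Ifi44, Oasl2 and Cxcl9 of the list, and Herc6 and Ifih1.

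Transcripts of the interferon ligands were almost absent in both genotypes. Of 21 interferon genes in the table, a list added after values were seen, 17 had 0 counts in all 11 libraries, among them Ifnb1 and each of the 13 Ifna genes. A group total of 0 allows up to 0.0424 CPM over the Mcm8Ko_LCWE libraries and 0.0351 CPM over the Wt_LCWE libraries, at 3 counts and for counting error only. Ifng, the type II interferon made by T and NK cells, had 3 counts over the 5 knockout libraries and 1 over the 6 wild-type libraries. Ifnz had 4 counts in the knockout and 2 in wild type. At this depth a difference in any interferon transcript was not detectable.

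Receptors and their kinases were well expressed and close in level between the genotypes. Ifnar1, a subunit of the type I receptor, averaged 44.2 ± 3.31 CPM in the knockout (SD, n = 5) and 42.3 ± 3.93 CPM in wild type (SD, n = 6). Ifnar2, the other subunit, averaged 45.0 ± 1.67 CPM in the knockout and 42.7 ± 4.84 CPM in wild type. The log2 fold changes were 0.07 ± 0.12 for Ifnar1 and 0.08 ± 0.09 for Ifnar2. They were -0.02 ± 0.10 for Ifngr1 and -0.16 ± 0.19 for Ifngr2, the receptor of interferon gamma. The kinase genes lay at 0.03 ± 0.14 for Jak1, 0.13 ± 0.10 for Jak2 and 0.03 ± 0.11 for Tyk2. None of these 7 was called (edgeR adjusted p = 0.93 to 0.99), and in each the groups overlapped.

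The transducers were higher in 3 of the 5 knockout hearts. Stat2 had 106, 39.8, 36.3, 81.2 and 75.6 CPM in knockout replicates 1 to 5, against a lowest of 25.5, a median of 30.3 and a highest of 39.7 CPM in wild type. Replicates 1, 4 and 5 lay far above every wild-type library, while replicate 2 lay beside the highest of them and replicate 3 lay inside their range. Stat2 differed by 1.09 ± 0.24 (adjusted p = 0.60). Irf9, the DNA-binding partner of STAT2, had 66.3, 32.5, 29.1, 55.6 and 61.2 CPM in the knockout, against 21.1, 24.2 and 31.6 CPM (lowest, median, highest) in wild type. The same 3 libraries were high and the same 2 low, at 0.95 ± 0.21 (adjusted p = 0.60). Irf7, which amplifies interferon transcription, had 132, 35.5, 25.2, 109 and 185 CPM in the knockout, against 18.3, 27.4 and 49.0 CPM in wild type (1.72 ± 0.54, adjusted p = 0.80).

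The same split ran through the antiviral effectors. Oas3, a synthetase of 2-5A that activates RNase L, had 6.42, 0.84, 0.45, 12.9 and 8.59 CPM in knockout replicates 1 to 5, against 0.25, 0.57 and 1.01 CPM in wild type. Replicates 1, 4 and 5 far exceeded the highest wild-type library, and replicates 2 and 3 did not exceed it. Oas3 differed by 3.33 ± 0.69 (edgeR adjusted p = 0.50, and 0.00255 by DESeq2), and it was called without knockout replicate 3 (adjusted p = 0.0497). Ifit1, which binds foreign RNA at its cap, had 42.9, 10.1, 7.87, 31.8 and 30.8 CPM in the knockout, against 4.40, 6.46 and 11.8 CPM in wild type (1.77 ± 0.46, adjusted p = 0.70). Isg15, a ubiquitin-like modifier, had 39.1, 9.54, 8.39, 18.6 and 16.8 CPM in the knockout, against 3.62, 8.95 and 14.2 CPM in wild type (1.12 ± 0.46, adjusted p = 0.85). In both, replicates 2 and 3 lay within the wild-type range. The GTPase gene Gbp7 had 46.5, 21.4, 19.3, 26.5 and 42.4 CPM in the knockout, against 14.7, 16.4 and 20.2 CPM in wild type. There 4 of 5 knockout libraries lay above every wild-type library (0.88 ± 0.20, adjusted p = 0.63). Herc6, the mouse ligase for ISG15, had 12.3, 6.62, 7.12, 8.81 and 9.37 CPM in the knockout, against 3.74, 4.71 and 6.87 CPM in wild type (0.86 ± 0.18, adjusted p = 0.50). Only replicate 2 fell below the highest wild-type library. Ifi44 had 23, 7.01, 6.74, 11 and 10.9 CPM in the knockout, against 3.77, 4.78 and 5.64 CPM in wild type. It was the 1 effector whose groups did not overlap (1.29 ± 0.38, adjusted p = 0.80), while 0.168% of all genes were higher without overlap. The antiviral GTPase gene Mx1 lay at 2.43 ± 0.59 and Usp18, the brake on the type I receptor, at 1.25 ± 0.39. The edgeR fit called neither, and DESeq2 called Mx1 (adjusted p = 0.0403).

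**Figure D1:**
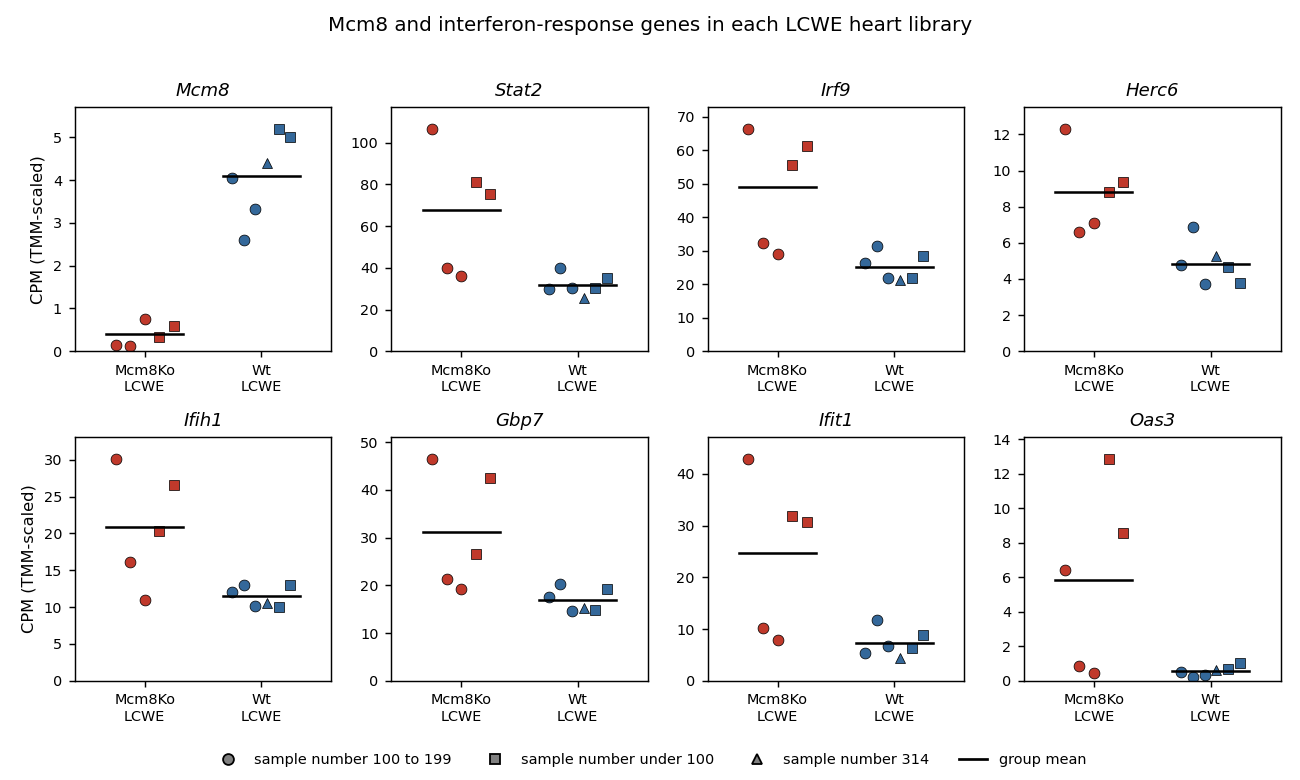
Level in CPM (linear axis from 0) of Mcm8 and 7 interferon-response genes in each of the 5 Mcm8Ko_LCWE and 6 Wt_LCWE libraries. Points are libraries, shapes give the range of the sample number and bars are group means. Mcm8 separates the genotypes, while the 7 other genes are high in the same 3 knockout libraries (replicates 1, 4 and 5).

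Over the list of interferon-stimulated effectors, 38 of 39 tested genes lay higher in the knockout, with a median log2 fold change of 0.92. An unadjusted p under 0.05 was reached by 32 of them, all higher, against 2.43% of all genes higher at that level, and edgeR called 0. DESeq2 called 4 of the 39 (Oas3, Stat2, Irf9 and Mx1), and edgeR called 1, Oas3, without knockout replicate 3. The exception was the chemokine gene Cxcl9, a target of interferon gamma, at -0.18 ± 0.33. Knockout replicates 1, 4 and 5 lay above the highest wild-type library for 36, 35 and 35 of the 39 genes, and replicates 2 and 3 for 8 and 2. Over all genes tested the same shares were 12.1% and 16.9% and 17.0% for replicates 1, 4 and 5, and 16.6% and 7.75% for replicates 2 and 3. The summed level of the 40 listed genes was 1993, 749, 660, 1435 and 1712 CPM in knockout replicates 1 to 5, against a median of 645 CPM (555 to 853) in wild type. Across 28 other settings of the fit the median stayed between 0.73 and 1.12, with 37 to 39 genes higher. It was 0.80 with the Y-linked level as a covariate. The 3 high libraries include 1 with Xist and 2 with Ddx3y, and the low ones include 1 with Ddx3y. Markers of macrophages and monocytes were higher in 20 of 20 over all libraries (median 0.40, 2 at an unadjusted p under 0.05, 0 called). They were high in knockout replicates 4 and 5, as the effectors were, but not in replicate 1. The level of that list, as a median of log2(CPM + 1) minus the wild-type LCWE mean, was 0.03, -0.24, -0.03, 1.31 and 0.73 in knockout replicates 1 to 5. In wild type it ran from -0.64 to 0.63, so knockout replicate 1, the highest in effectors, lay inside that range.

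Within sample numbers 100 to 200 the effectors had a median of 0.68 with 37 of 39 higher (51.7% of all genes), but this rested on knockout replicate 1. Without replicate 1 the median was -0.05 with 19 of 39 higher, and without replicate 3 it was 0.96. Under 100 the median was 1.25 with 38 of 39 higher (50.4% of all genes), and 16 of 39 rose (edgeR adjusted p under 0.05 in 2 against 2), against 0.657% of all genes. They include Ifit3 (2.08), Ifit1 (2.05), Oas3 (3.65), Oasl2 (1.81), Usp18 (1.79) and Stat2 (1.26). Leaving out any 1 of those 4 libraries kept the median between 1.08 and 1.37. The difference between the ranges was tested, and 0 of the 39 effectors were called.

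Hearts given PBS are set beside these values, with no library in common. Summed effector levels were 1027, 1708 and 664 CPM in the 3 knockout PBS hearts, against 434 to 721 CPM in the 5 wild-type PBS hearts. Again some knockout hearts were high (replicates 1 and 2) and another (replicate 3) lay within the wild-type range. The list had a median of 0.84 under PBS with 37 of 39 higher (50.2% of all genes). Of the list 0 were called, where 86 genes (0.601%) were called in all, 75 higher (0.524%) and 11 lower (0.0769%). The change of the knockout difference from PBS to LCWE was tested for each gene. None of the 39 effectors reached even an unadjusted p under 0.05 in that test.

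Sensors of cytosolic nucleic acid were higher in part. Of 18 tested genes 12 lay higher, 8 of them at an unadjusted p under 0.05, with a median of 0.41 and 0 called. Of all genes tested 2.43% were higher at that level. Ifih1, which encodes MDA5, had 30.1, 16.1, 10.9, 20.4 and 26.5 CPM in the knockout, against 10, 11.4 and 13 CPM in wild type (0.86 ± 0.20, adjusted p = 0.63). Ddx58, which encodes RIG-I, had 48.7, 29.6, 20.2, 35.5 and 31.8 CPM in the knockout, against 18.8, 20.7 and 22.4 CPM in wild type (0.68 ± 0.17, adjusted p = 0.63). Knockout replicate 3 alone lay within the wild-type range in both genes. Dhx58 (1.5 ± 0.41), Zbp1, a sensor of Z-form nucleic acid (2.04 ± 0.61), and Ifi204 (1.38 ± 0.38) lay higher too. All 5 are also induced by interferon. The DNA sensor gene Cgas, at 0.42 ± 0.27, and its adaptor Sting1, at 0.05 ± 0.23, overlapped between the groups and were not called.

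Antigen presentation on MHC class I followed a weaker form of the pattern. All 13 tested genes lay above 0 with a median of 0.28, and 0 were called. An unadjusted p under 0.05 was reached by 3 of them, against 2.43% of all genes higher at that level. H2-T23, a non-classical class I molecule, had 99.3, 51.6, 44, 112 and 106.9 CPM in the knockout, against 40.5, 48.4 and 62.1 CPM in wild type (0.72 ± 0.22, adjusted p = 0.80). The peptide transporter gene Tap1 (0.80 ± 0.29) and the class I transactivator gene Nlrc5 (1.08 ± 0.38) were the other 2. The median was -0.15 within 100 to 200, with 5 of 13 higher, and 0.82 under 100, with 13 of 13 higher. The first was -0.31 without knockout replicate 1 and 0.02 without knockout replicate 3.

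Mitochondrial respiratory genes lay lower in the knockout, by a small amount. Of 34 tested subunits and assembly genes of complex I, the entry point of electrons from NADH, 34 lay lower, with a median log2 fold change of -0.31. Of these 17 had an unadjusted p under 0.05, where 3.12% of all genes were lower at that level, and 0 were called. For complexes II to V 38 of 38 genes lay lower, with a median of -0.27, 14 of them at an unadjusted p under 0.05 and 0 called. Cox7a1, the heart and muscle isoform of a cytochrome c oxidase subunit, had 472, 435, 513, 357 and 343 CPM in the knockout, against 465, 616 and 754 CPM in wild type. Only wild-type replicate 4 reached into the knockout range (-0.56 ± 0.15, adjusted p = 0.70). Ndufs7, a core subunit of complex I, had 595, 603, 640, 546 and 570 CPM in the knockout, against 635, 704 and 958 CPM in wild type (-0.33 ± 0.11, adjusted p = 0.80). The complex I gene Ndufs3 (-0.23 ± 0.08) and the succinate dehydrogenase gene Sdhb (-0.30 ± 0.11) lay lower by like amounts.

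The respiratory lists moved with particular wild-type libraries. For complex I the list level was -0.25, -0.32, -0.09, -0.24 and -0.42 in knockout replicates 1 to 5. In wild-type replicates 1 to 6 it was -0.08, 0.33, 0.48, -0.33, -0.12 and -0.27, so replicates 2 and 3 alone were high. The same 2 wild-type libraries were high in the list of cytosolic ribosomal proteins, at 0.51 and 0.60. With the 3 wild-type libraries numbered 100 to 200 left out, the median of complex I was -0.04 with 12 of 34 genes higher, and that of complexes II to V was -0.02 with 14 of 38 higher. Those 3 libraries also hold the high Rn45s levels given above, and the part of these in the difference was not tested. By range the medians were -0.47 and -0.46 for the 2 lists within 100 to 200, and -0.15 and -0.13 under 100. Fatty acid oxidation genes were lower in 28 of 33, with a median of -0.14 and 3 at an unadjusted p under 0.05, such as the carnitine palmitoyltransferase gene Cpt2 (-0.42 ± 0.14). Of all genes tested 3.12% were lower at that level.

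Some single genes lay lower in every knockout heart. Uros, which encodes an enzyme of haem synthesis, had 22.5, 23.7, 22, 24.1 and 23.7 CPM in the knockout, against 29.2, 29.9 and 33.7 CPM in wild type. The groups did not overlap and each was tight, at -0.40 ± 0.09 (edgeR adjusted p = 0.63, and 0.0483 by DESeq2). The difference was -0.41 within 100 to 200 and -0.41 under 100. Rdh14, a mitochondrial retinol dehydrogenase gene, had 43.2, 41.2, 41.8, 44.7 and 46.5 CPM in the knockout, against 48.8, 55.1 and 58.7 CPM in wild type (-0.32 ± 0.09, adjusted p = 0.70). Cmtm8 had 14, 12.3, 15, 12.5 and 10.7 CPM in the knockout, against 15.1, 17.5 and 22.2 CPM in wild type (-0.48 ± 0.12, adjusted p = 0.70). Both were without overlap and lower by like amounts in the 2 ranges. Fahd1, an oxaloacetate decarboxylase of mitochondria, had 62.5, 70.2, 77.2, 52.0 and 55.4 CPM in the knockout, against 75.8, 85.1 and 118 CPM in wild type (-0.49 ± 0.12, adjusted p = 0.63). Its groups overlapped in 1 library. The symbol Mir3098 had 2.01, 2.99, 1.65, 2.51 and 1.89 CPM in the knockout, against 3.62, 4.22 and 4.68 CPM in wild type (-0.91 ± 0.18, edgeR adjusted p = 0.50, and 0.0211 by DESeq2). Counts at a microRNA symbol in such libraries may come from a longer transcript over the same place. In all 52 genes were lower without overlap (0.364% of those tested) and 24 were higher (0.168%). Of the 462 ways to split 5 against 6 libraries, 1 separates the groups in a given direction, a share of 0.00216. The share of higher genes lay below that rate and the share of lower genes above it, so separation alone does not show an effect of genotype. Among the 24 was Tgfb2, a Kawasaki disease susceptibility gene in people, at 12.3, 10.8, 9.29, 9.01 and 9.30 CPM in the knockout, against 6.49, 7.82 and 8.11 CPM in wild type (0.40 ± 0.18, adjusted p = 0.87). The 16 tested orthologues of such susceptibility genes were split, with 8 higher and 8 lower and a median of 0.02. Of the 16, 1 had an unadjusted p under 0.05 and 0 were called.

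**Figure D2:**
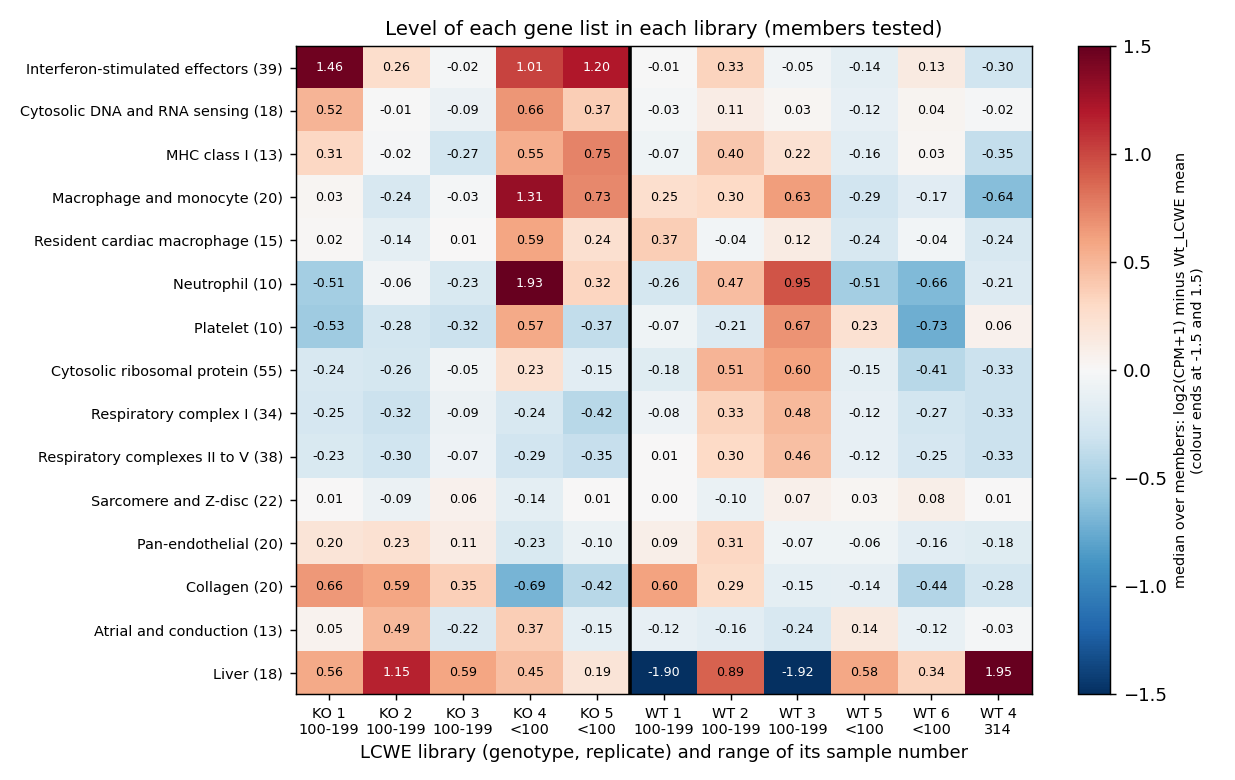
Level of 15 gene lists in each LCWE library, as the median over the tested genes of each list of log2(CPM + 1) minus the wild-type LCWE mean; knockout libraries (KO) stand left of the black line and wild-type libraries (WT) right of it. The interferon row is high in KO 1, 4 and 5 (1.46, 1.01 and 1.20), the macrophage row in KO 4 and 5 (1.31 and 0.73), and both respiratory rows in WT 2 and 3.

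The knockout difference did not keep its direction between the 2 ranges of sample numbers over the genome. Across 14301 genes the log2 fold changes of the ranges had a Pearson correlation of -0.07 and a Spearman correlation of -0.09, a description over genes, which are not independent. The same sign was seen in 6723 of 14301 genes. Within 100 to 200 edgeR called 0 genes, with 487 higher (3.41%) and 915 lower (6.40%) at an unadjusted p under 0.05 (9.80% in all). DESeq2 called 101 genes there and limma-voom 0. The edgeR count was 675 without wild-type replicate 1 and 62 without wild-type replicate 2. Signs split 51.7% above and 48.3% below 0 in that range. Under 100 edgeR called 116 genes (0.811% of those tested), of which 94 rose and 22 fell (0.154%), while 50.4% lay above and 49.6% below 0. Of those 94, 49 were above 0 within 100 to 200, and of the 22, 6 were below 0. The count under 100 was 210 and 376 without knockout replicate 4 and 5, and 29 and 50 without wild-type replicate 5 and 6.

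**Figure D3:**
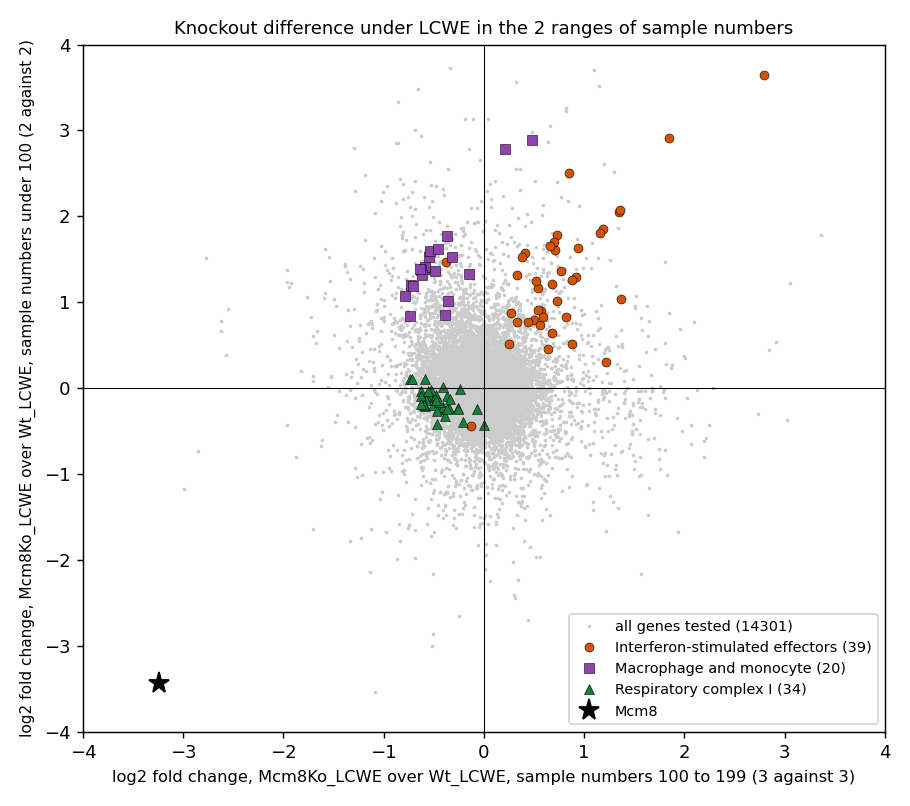
Log2 fold change of knockout over wild type under LCWE within sample numbers 100 to 200 (x axis, 3 against 3) and under 100 (y axis, 2 against 2), 1 point a gene; 20 of the 14301 genes lie outside the axes. Interferon effectors lie mostly in the upper right, macrophage genes mostly in the upper left, and Mcm8 in the far lower left.

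Macrophage and monocyte genes were among those that differed between the ranges. The test of the difference called 57 genes (0.399% of those tested), of which 54 (0.378%) had a lower knockout difference within 100 to 200 than under 100 and 3 (0.0210%) a higher one. Of 20 macrophage and monocyte genes 13 were among these, with 1 of 10 neutrophil genes and 0 of 11 T and NK cell genes. The macrophage list had a median of -0.54 within 100 to 200 with 2 of 20 higher, against 1.38 under 100 with 20 of 20 higher and 9 called. Of all genes tested 0.657% were called higher under 100, in 2 libraries against 2. The count of calls depends on few libraries. It was 0 without knockout replicate 4 or without wild-type replicate 5, and 5 without wild-type replicate 6. It was 31, 26 and 94 without knockout replicate 2, 3 and 5, and 486, 143 and 35 without wild-type replicate 1, 2 and 3. Fewer cells of a type and less RNA per cell cannot be told apart in these bulk libraries.

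Named leukocyte genes show which libraries carry this. Lcp1, the leukocyte actin-bundling protein plastin, had 32.5, 28.6, 28.8, 55.1 and 55.2 CPM in knockout replicates 1 to 5. In wild-type replicates 1 to 3 it had 39.8, 38.1 and 44.5 CPM, and in wild-type replicates 4 to 6 it had 18.9, 21.7 and 24.5 CPM. So knockout hearts were lower than wild type within 100 to 200 and higher under 100, without overlap in each (difference between ranges -1.71 ± 0.18, edgeR adjusted p = 0.00683). C1qb, a complement chain made by tissue macrophages, had 75.8, 58.4, 70.7, 188 and 120 CPM in the knockout, against 92.3, 112 and 116 CPM in wild-type replicates 1 to 3 and 42.1, 62.8 and 55.5 CPM in wild-type replicates 4 to 6. Its difference between ranges was -2.03 ± 0.27 (adjusted p = 0.0128). Aoah, an enzyme that inactivates lipopolysaccharide (-2.87 ± 0.37), Il10ra, the interleukin-10 receptor (-1.92 ± 0.25), and Alox5ap, which feeds leukotriene synthesis (-1.95 ± 0.26), gave the same order. For each of these the adjusted p was 0.0128. The cathepsin gene Ctss differed by -2.15 ± 0.30 between ranges, the NADPH oxidase gene Cybb by -2.0 ± 0.34, Mpeg1 by -2.10 ± 0.34 and the integrin gene Itgb2 by -1.47 ± 0.28. All 4 were called.

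Neutrophil genes differed widely between the ranges, at low levels. The 10 tested neutrophil genes had a median of -1.35 within 100 to 200 and 4.30 under 100, with 0 of 10 and 10 of 10 higher. The test of the difference called 1 of the 10. The median under 100 was 2.61 without knockout replicate 4, and that within 100 to 200 was -0.84 without wild-type replicate 3. S100a8, a subunit of calprotectin, had 1.39, 2.27, 1.87, 21.4 and 5.14 CPM in the knockout, against 1.74, 5.02, 12.9, 1.57, 1.02 and 0.27 CPM in wild-type replicates 1 to 6. Knockout replicate 4 was the highest of all, and wild-type replicate 3 the second. Retnlg, another neutrophil transcript, differed between ranges by -6.32 ± 1.14 (adjusted p = 0.0475) and Saa3, an acute phase protein, by -4.19 ± 0.61 (adjusted p = 0.0145). The B cell chemokine gene Cxcl13 reached 20.9 CPM in knockout replicate 4 and 1.30 CPM in replicate 5, against at most 0.68 CPM in wild type. Il1b had 0.39, 1.04, 0.30, 1.69 and 1.43 CPM in the knockout, against 0.14, 0.44 and 1.05 CPM in wild type (0.96 ± 0.59, adjusted p = 0.90). Tnf had 0.386, 0.389, 0.225, 0.542 and 0.0651 CPM in the knockout, against 0.31, 0.77 and 0.93 CPM in wild type (-1.03 ± 0.57, adjusted p = 0.90). The groups of both overlapped. Among complement genes, Cfb (1.14 ± 0.37), C2 (0.98 ± 0.42) and C4b (1.43 ± 0.62) had an unadjusted p under 0.05, of 18 tested with 15 higher and 0 called. Of all genes tested 2.43% were higher at that level.

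Myh7 and transcripts that overlap it differed in the 2 knockout hearts numbered under 100. The list of 22 sarcomere and Z-disc genes had a median of -0.12 there, with 4 of 22 higher and 0 called. Myh7, the slow myosin heavy chain that the mouse heart makes before birth and under load, had 851, 1701, 730, 16702 and 20424 CPM in knockout replicates 1 to 5, against 464, 2112 and 2540 CPM in wild type. Replicates 4 and 5 stood far above the other 9 libraries. PBS hearts cannot show whether the level goes with numbers under 100, since only 1 knockout and 0 wild-type PBS libraries have such a number. Myh7 had 14213, 803 and 13251 CPM in knockout PBS replicates 1 to 3, of which replicate 2 alone is numbered under 100, against 587 to 3216 CPM in wild-type PBS hearts. Myh7 rose under 100, by 3.13 ± 0.17 (adjusted p = 0.00059). It was at -0.19 within 100 to 200, and the difference between ranges, -3.35 ± 0.93, was not called (adjusted p = 0.30). Mhrt, transcribed from chr14:54968678-54974349 on the plus strand of GRCm38, overlaps Myh7 at chr14:54970684-54994626 on the minus strand, and Mir208b lies within Myh7. Mhrt had 29.7 and 33.8 CPM in knockout replicates 4 and 5, against 68.6 and 85.1 CPM in wild-type replicates 5 and 6 (-1.28 under 100, adjusted p = 0.011). Mir208b had 15.5 and 21.1 CPM in knockout replicates 4 and 5, against 47.2 and 56.8 CPM in wild-type replicates 5 and 6 (-1.51 under 100, adjusted p = 0.011). Both fell under 100, where Myh7 rose. In knockout PBS replicates 1 to 3 Mhrt had 30.5, 70.1 and 23.6 CPM, against 41.2 to 59.7 CPM in wild-type PBS hearts. Mir208b had 15.8, 42.2 and 11.3 CPM there, against 30.0 to 41.2 CPM. So both were also low in PBS replicates 1 and 3, where Myh7 was high. Whether the counting used strand is not given, so reads of overlapping genes cannot be told apart. Myh6, the adult myosin heavy chain, had 50675, 50832, 52092, 37081 and 49580 CPM in the knockout, against 38824, 53117 and 61448 CPM in wild type (-0.08 ± 0.14). Nppa, the atrial natriuretic peptide gene, had 771, 1025, 369, 1410 and 924 CPM in the knockout, against 238, 362 and 964 CPM in wild type (0.98 ± 0.34, adjusted p = 0.83). Atrial genes moved with 2 knockout libraries. Myl7, an atrial myosin light chain, had 1.0, 82.6, 0.30, 40.8 and 0.72 CPM in the knockout, against 0.157, 0.605 and 7.58 CPM in wild type. Of 13 atrial and conduction genes 6 were higher at an unadjusted p under 0.05, against 2.43% of all genes tested. The part of atrial tissue in the hearts sampled was not tested.

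**Figure D4:**
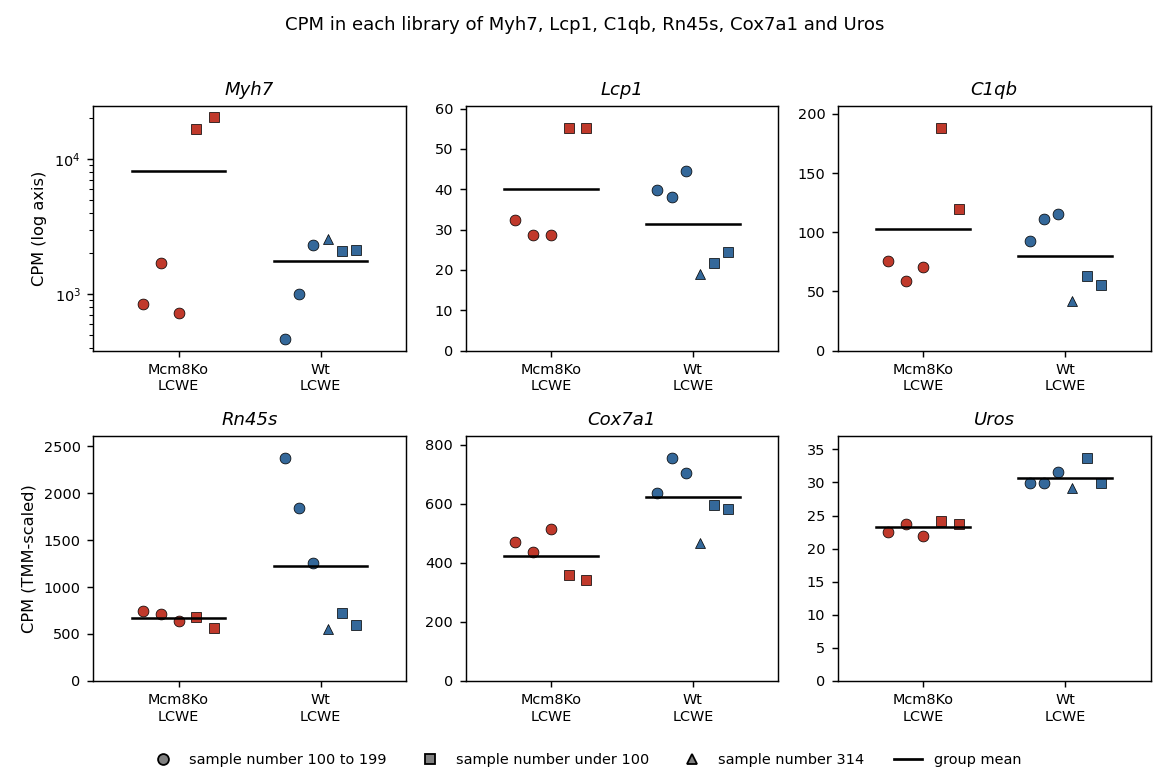
Level in CPM of 6 genes in each LCWE library (Myh7 on a log axis, the others on linear axes from 0), with shapes for the range of the sample number and bars for group means. Myh7 is high in the 2 knockout libraries numbered under 100, Lcp1 and C1qb change order between ranges, Rn45s is high in 3 wild-type libraries, and Uros separates the genotypes.

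Ribosomal protein and collagen lists had medians on opposite sides of 0 in the ranges, and the test of the difference called 0 genes of either. Cytosolic ribosomal protein genes had a median of -0.52 within 100 to 200 with 0 of 55 higher, and 0.32 under 100 with 54 of 55 higher. The value under 100 was 0.11 without knockout replicate 4. Rps29 had 223, 214, 215, 296 and 196 CPM in the knockout, against 178, 237 and 461 CPM in wild type (-0.34 ± 0.21, adjusted p = 0.90). Collagen genes went the other way, with a median of 0.23 and 19 of 20 higher within 100 to 200, and -0.32 and 2 of 20 higher under 100. Without wild-type replicate 1 and 3 the first was 0.43 and 0.10, and without wild-type replicate 5 the second was -0.11. Col1a2, a chain of type I collagen, had 317, 301, 238, 159 and 147 CPM in the knockout, against 127, 167 and 317 CPM in wild type. Libraries numbered under 100 had lower levels in both genotypes, and the groups overlapped (0.30 ± 0.26). No gene of these 2 lists was called by edgeR in either range.

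**Figure D5:**
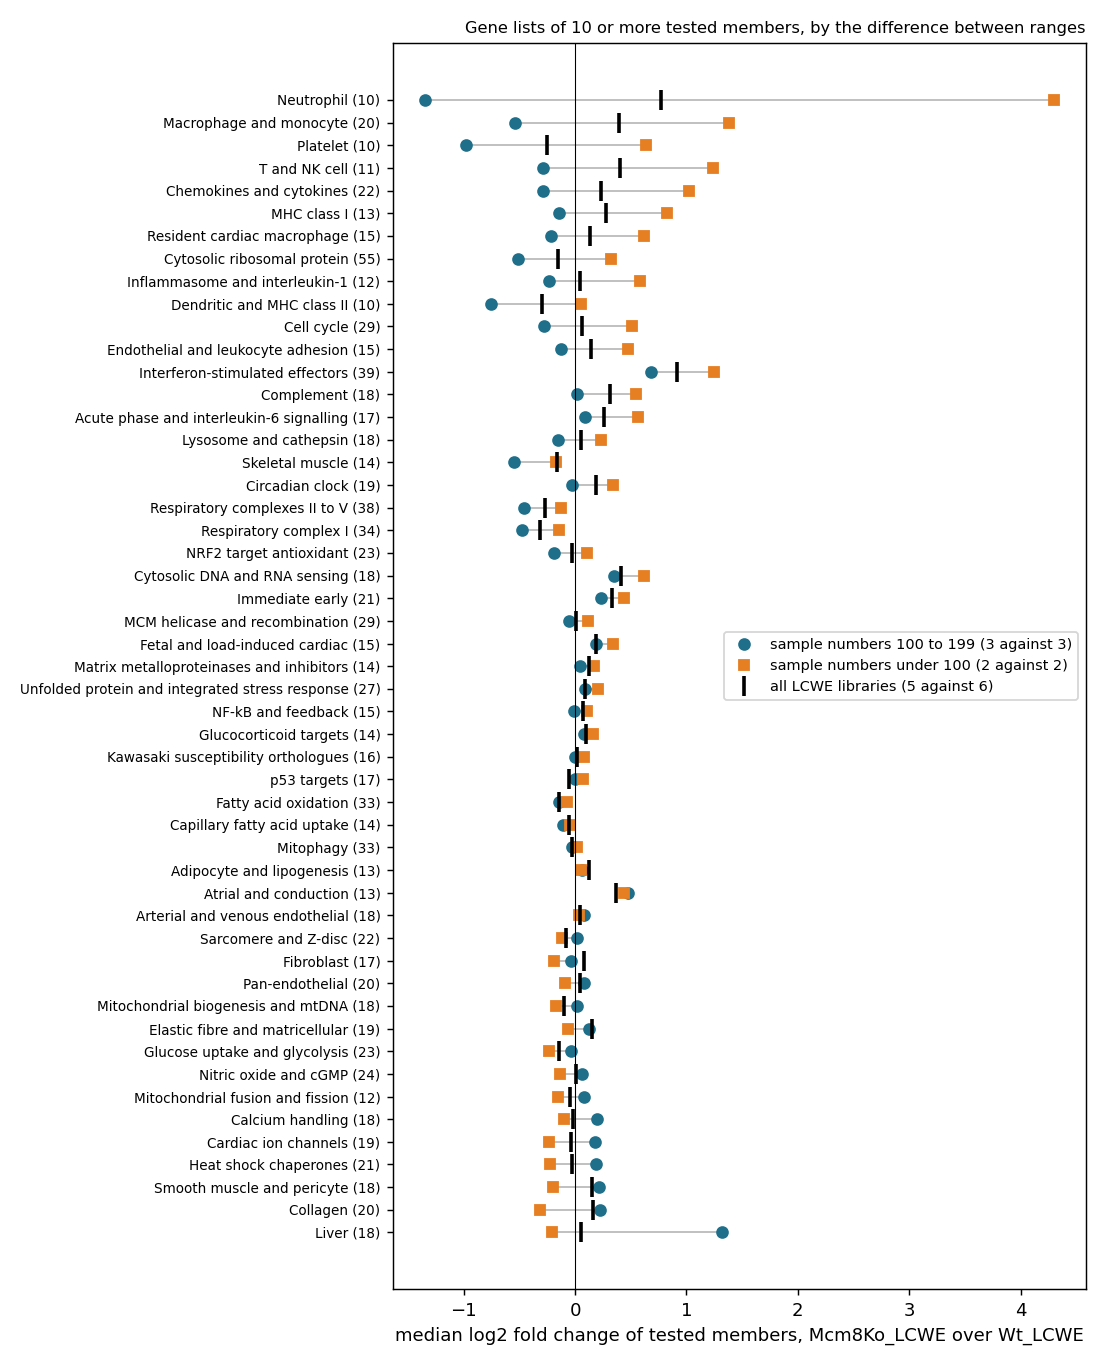
Median log2 fold change of knockout over wild type for each list of 10 or more tested genes (number in brackets), within sample numbers 100 to 200 (circles), under 100 (squares) and over all LCWE libraries (black bars). Neutrophil, macrophage and platelet lists lie on opposite sides of 0 in the ranges, interferon effectors lie right of 0 in both, and respiratory lists left of 0 in both.

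Lists nearest to the topic of the series had medians close to 0. Of 33 mitophagy genes 11 lay higher and 22 lower, with a median of -0.03 and 0 called. Pink1, the kinase that marks damaged mitochondria, had 668, 617, 782, 1010 and 971 CPM in the knockout, against 722, 939 and 1088 CPM in wild type (-0.17 ± 0.15, adjusted p = 0.94). The mitophagy receptor genes Bnip3 and Fundc1 lay at 0.05 ± 0.25 and -0.15 ± 0.13, with overlap in each. Tomm7, a subunit of the outer membrane import channel, was the 1 member at an unadjusted p under 0.05 (-0.39 ± 0.15, adjusted p = 0.84). Of 24 nitric oxide and cGMP genes 14 lay higher and 10 lower, with a median of 0.01 and 0 at an unadjusted p under 0.05. Nos3, the endothelial nitric oxide synthase gene, averaged 101 ± 22.2 CPM in the knockout (SD, n = 5) and 99.8 ± 17.3 CPM in wild type (SD, n = 6). Nos2, the inducible form, averaged 22.6 ± 5.83 CPM in the knockout and 24.3 ± 5.60 CPM in wild type. Both synthases differed by less than their spread. Of 29 helicase and recombination genes only Mcm8 was called, and of the other 28 Fanci, of the Fanconi anaemia pathway, lay at 0.93 ± 0.37. Pan-endothelial, smooth muscle and fibroblast lists had medians of 0.05, 0.16 and 0.08, with 0 genes at an unadjusted p under 0.05 in each.

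Whether the knockout difference under LCWE departed from that under PBS was tested in the same fit. The edgeR fit called 0 genes, with 1145 at an unadjusted p under 0.05 (8.01% of those tested), while DESeq2 called 5, limma-voom 0 and limma-voom with library weights 21. The genes with the smallest p were Cyp4b1, Tbx6, Notum and Macroh2a2. The edgeR fit called none of the 4, while they were 4 of the 5 genes called by DESeq2 (adjusted p = 0.000608, 0.0221, 0.0459 and 0.0194 in that order) and were among the 21 of limma-voom with library weights. The knockout difference was -0.36 after LCWE and 0.90 after PBS for Cyp4b1, and -0.36 after LCWE and 1.74 after PBS for Tbx6. It was -0.94 after LCWE and 1.49 after PBS for Notum, and 0.32 after LCWE and -0.86 after PBS for Macroh2a2. Cyp4b1, a cytochrome P450, had 29.1, 28.4, 31.2, 42.6 and 30.0 CPM in the knockout after LCWE, against 37.1, 40.2 and 47.5 CPM in wild type after LCWE. After PBS it had a median of 82.1 CPM (56.7 to 94.6) in the knockout and 37.9 CPM (35.8 to 48.8) in wild type. It was lower in 4 of 5 knockout hearts after LCWE and higher in all 3 after PBS, and the knockout difference was 1.26 lower on the log2 scale after LCWE than after PBS. It was called without knockout replicate 4 (edgeR adjusted p = 0.0165). Fatty acid oxidation genes had a median knockout difference of -0.14 after LCWE and 0.48 after PBS, and 20 of 33 had an unadjusted p under 0.05 in this test.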

How the data were processed

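Bulk RNA sequencing of mouse heart tissue was deposited by the authors as 1 table of raw counts per gene symbol for 19 libraries, with replicates not pooled. Per the labels' protocols, RNA was extracted, reverse transcribed, preamplified and made into libraries with the Vazyme Discover-sc WTA Kit V2. Per the submitters' processing notes, STAR 2.7.8a, limma and the build GRCm38 were used, with no roles given. The sources used here do not give the counting program, the annotation or the use of strand. Preamplified reads are not independent molecules, so floors cover counting error only.

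Genes were kept by filterByExpr (at least 10 counts, total of 15). All 19 libraries entered 1 fit of edgeR 4.0.16 (R 4.3.3, TMM, robust quasi-likelihood test, 4 groups of genotype and treatment). P-values were adjusted by Benjamini-Hochberg over all genes tested, with calls at 0.05, and every call and adjusted p is from edgeR unless another tool is named. Each range of sample numbers, and the difference between ranges, was fitted on the LCWE libraries. The standard error is the log2 fold change over the square root of the F value. The procedure was also run on simulated counts. These held no differences by sex-linked transcripts, Rn45s or sample number, so the run does not cover such conditions. DESeq2 1.42.0, limma 3.58.1 (voom) and sva 3.50.0 gave alternatives. Of the table's columns 0 belonged to other samples, and library pairs were checked for duplicates, of which there were none.

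Named genes are called genes, those with the smallest p at a mean of at least 5 CPM (5 in each direction) and up to 4 of each list. The 4 genes with the smallest p in each test of a difference and a hand-written list are named too. Interferon ligands, receptors, kinases and other genes outside these rules were chosen after their values were seen. The genes and lists were chosen with earlier results of these data known. Promoters are RefSeq's (GRCm38.p6) and gene positions GENCODE vM21 (GRCm38).

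Some genes of the lists are not reported here by name.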

Additional observations from a re-analysis of the deposited data

Results flagged for a closer look

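In 12 of 236 groups examined, 1 library stood apart from the rest of its group by Dixon's criterion, and chance gives about 1 in 20. Knockout replicate 4 after LCWE was apart in 4 genes. It was high in Cxcl13 (20.9 CPM), Cyp4b1 (42.6 CPM) and Xist (207 CPM), and low in Myh6 (37081 CPM). Knockout replicate 3 was high in Tnni3, the cardiac troponin I gene, at 6330 CPM. Wild-type replicate 5 was high in the atrial genes Myl4 (13.7 CPM), Myl7 (7.58 CPM) and Sln (2.94 CPM). Wild-type replicate 1 was high in Ddx3y (39.9 CPM) and low in Xist (1.01 CPM). Wild-type replicate 3 was high in Fahd1 (118 CPM), and wild-type replicate 6 was low in Tgfb2 (6.49 CPM).

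For 13 named genes the knockout difference within sample numbers 100 to 200 departed from that under 100 by the edgeR test of the difference (adjusted p under 0.05). The differences between ranges on the log2 scale were -1.95 for Alox5ap, -2.87 for Aoah, -2.03 for C1qb, -2.15 for Ctss and -2.0 for Cybb. They were -1.92 for Il10ra, -1.47 for Itgb2, -1.71 for Lcp1, -2.1 for Mpeg1, -6.32 for Retnlg and -4.19 for Saa3. For Mhrt and Mir208b, which overlap Myh7, they were 1.38 and 1.63. No call of the difference was left without knockout replicate 4 or without wild-type replicate 5, where 0 genes passed.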

How the results depend on the processing

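For genes changed between Mcm8Ko_LCWE and Wt_LCWE, the count of 1 became 0 under a filter of 5 CPM in 3 libraries, which removes Mcm8, 8 by DESeq2 and 2 by limma-voom with library weights. Leaving out 1 library gave 1 to 2. Mcm8 kept its direction, at -3.71 to -3.12, wherever it was tested. For LCWE minus PBS the count of 0 became 5 by DESeq2 and 0 to 1 on leaving out a library. It was 21 by limma-voom with library weights and 2 without the knockout libraries numbered under 100. Within 100 to 200 the count of 0 became 101 by DESeq2, 2 in a fit of all 19 libraries and 0 to 675 on leaving out a library. Under 100 the count of 116 became 336 without a filter, 290 by DESeq2, 31 by limma-voom and 29 to 376 on leaving out a library. For the difference between ranges the count of 57 became 96 without a filter, 184 by DESeq2, 37 by limma-voom and 0 to 486 on leaving out a library. Beyond what each construction removes, the cause was not tested. Of 2979 values for the named genes other than Mcm8 over 28 settings, 2871 kept their call and direction. Another 9 kept their direction and passed the threshold only there. The other 99 had the opposite direction to the main fit, which called none of these genes. Of 1566 medians for 56 lists, 1462 stayed and 104 moved. A median stayed if it shifted by less than the SD of the list's mean level over the Wt_LCWE libraries, whatever its sign. For cytosolic ribosomal proteins, for example, the medians ran from -0.245 to 0.205 over the settings.

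No paired analysis was possible because replicate numbers were given in accession order and the sample numbers in the labels differ between groups. Ligand transcripts at 0 counts are limited by depth.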

Other observations

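Genes of the mitochondrial ribosome, a list chosen after values were seen, lay lower in the knockout after LCWE in 78 of 78, with a median log2 fold change of -0.23. Of these 27 had an unadjusted p under 0.05, where 3.12% of all genes were lower at that level, and 0 were called by edgeR. In 4 the groups did not overlap, against 0.364% of all genes lower without overlap. The median was -0.31 within sample numbers 100 to 200, with 78 lower, and -0.20 under 100, with 66 lower. In hearts given PBS 69 of 78 lay lower, with a median of -0.18. With the 3 wild-type libraries numbered 100 to 200 left out, the median was -0.04 with 53 of 78 lower, and by limma-voom with library weights it was -0.08 with 65 lower.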
